A study of Homo sapiens with 2 samples.

Results

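Ribosomes are built from ribosomal RNA and proteins of a large and a small subunit, and the subunits are brought to an mRNA by initiation factors (eIF) and moved along it by elongation factors (eEF). Most genes for ribosomal proteins and for some factors share a start site at a C followed by a run of C and T, the terminal oligopyrimidine (TOP) tract, through which the kinase mTOR controls their translation. These mRNAs are among the most abundant of dividing cells, and many of the genes have processed pseudogenes, copies of the mRNA inserted elsewhere in the genome.

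The transcripts of this machinery were measured by RNA-seq in HAL-01, a human leukaemia line that the labels call pre-B. AG was 1 library of cells kept for 24 h with 1,5-AG (1,5-anhydroglucitol) at 0.8 mM, and Control was 1 library of the same line, whose handling the labels do not describe further. Members were the protein-coding genes of GENCODE 29 named RPL or RPS with a digit (the RPS6K kinases left out), RPLP0 to RPLP2, RPSA, or with names starting EIF or EEF. Of 163 such genes, 68 had a value in at least 1 library, among 16145 genes in all, and 95 were not analysed here. Of the 68, 2 lie on the Y chromosome and are given no value, 2 were listed in AG only, and 3 had a mean under 1 FPKM (fragments per kilobase of transcript, scaled to library size). The other 61 are compared below: 18 large and 14 small subunit proteins, 4 paralogues of ribosomal proteins, 16 initiation factors, 3 initiation regulators, 2 elongation factors and 4 elongation regulators.

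The FPKM steps implied totals of 14857372 fragments in AG and 16240451 in Control. Each group is 1 library, so differences between cultures cannot be weighed against replicate spread and no test was run. Ratios are AG FPKM over Control FPKM with a 95% counting interval, which covers counting error only and not the spread between cultures. Log2 ratios were taken after adding 1 FPKM, a scale on which low genes appear to move less. A gene is called higher or lower from 1.5-fold on that scale. The label of the line was not matched by the markers that were listed. Of 13 genes of B cell precursors 5 were listed in AG and 8 in Control, with summed levels of 2.89 FPKM in AG and 2.80 in Control. Of the 13, 4 had no value in either library, and a missing value is not a measured 0. Of 10 granulocyte and monocyte genes 6 were listed in both, with sums of 488 FPKM in AG and 950 in Control. CTSG alone had 194 FPKM in AG and 743 in Control, and the 5 other genes summed to 295 FPKM in AG and 207 in Control. The T and NK cell list had 1 gene with a value, NKG7, at 10.3 FPKM in AG and 17.2 in Control. Of the erythroid list HBB alone was listed, in Control only, at 0.0472 FPKM. The part of these shifts in the results below was not tested.

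Transcripts of the machinery were abundant and closely alike in the libraries. Members held 16 of the 50 highest places among all listed genes in AG and 16 in Control. The highest were RPL8 at 825 FPKM in AG and 893 in Control, and EEF1A1 at 749 and 855 FPKM. Of the 61 members 59 lay within 1.5-fold, 1 was higher in AG and 1 was lower. Of all 5522 expressed genes 3.6% were higher, 3.33% were lower and 6.94% were past 1.5-fold either way. The higher one was RPL7A and the lower one EEF2K, the kinase that inhibits elongation factor eEF2. Small differences ran mostly one way: 49 of the 61 members were below 0 on the log2 scale, where 56.8% of all expressed genes were. The median log2 ratio was -0.07 over members and -0.03 over the 5461 other expressed genes.

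**Figure D1:**
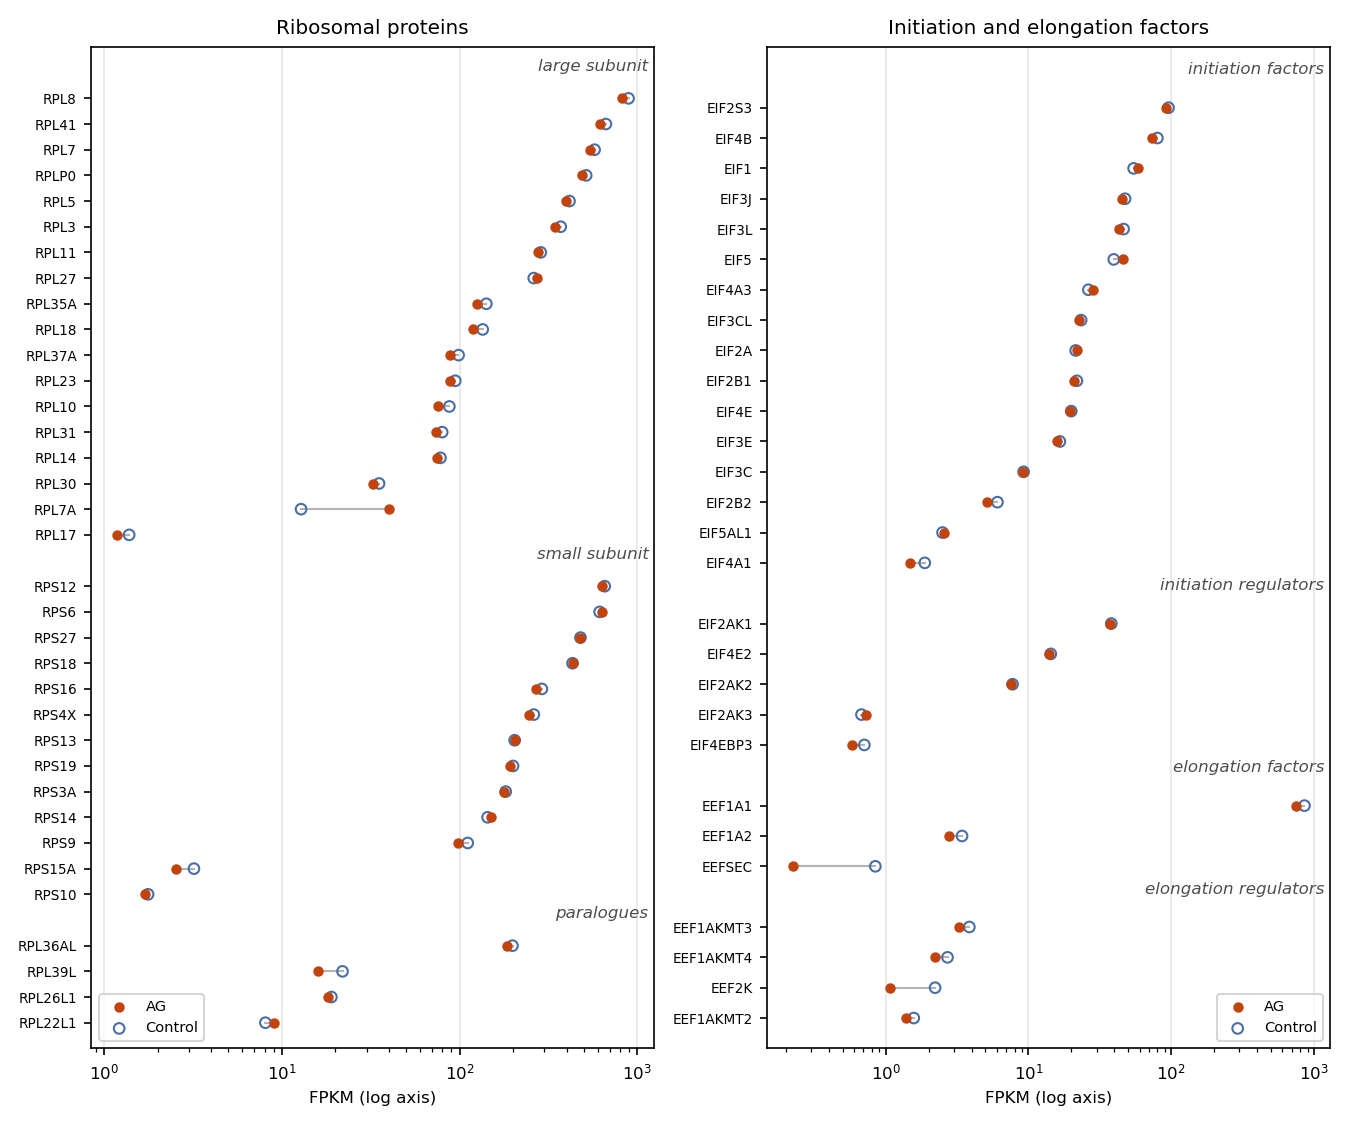
FPKM of the members listed in both libraries that are reported by name (log axis), with filled points for AG and open circles for Control, ordered by mean level within each class. The points nearly coincide for most genes, with RPL7A (40.2 FPKM in AG and 12.8 in Control), EEF2K and EEFSEC as the widest gaps.

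Large subunit proteins were slightly lower in AG as a class, with RPL7A as the exception. RPL8, a core protein of the large subunit, had 825 FPKM in AG and 893 in Control, a ratio of 0.924 (95% counting interval 0.909 to 0.939). RPL41, the smallest ribosomal protein, had 616 FPKM in AG and 666 in Control. RPL7, which has many pseudogenes, had 542 FPKM in AG and 575 in Control. All 3 were a little lower in AG, with ratios from 0.924 to 0.943. RPLP0, the base of the acidic stalk that recruits translation factors, had 489 FPKM in AG and 516 in Control. RPL5 had 398 and 416 FPKM in AG and Control, and its partner RPL11 had 277 and 286; the pair also binds MDM2, the inhibitor of p53. RPL3, which lies near the peptidyl transferase centre, had 342 FPKM in AG and 371 in Control. The order of these genes by level was the same in both libraries.

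The lowest ratios of the large subunit were those of RPL10, RPL17 and RPL18 on the plain scale. RPL10, a late-joining protein of the subunit interface, had 75.7 FPKM in AG and 87.6 in Control, a ratio of 0.865 (0.834 to 0.897). RPL18 had 119 FPKM in AG and 135 in Control, a ratio of 0.884 (0.856 to 0.913). RPL35A had 126 and 141 FPKM in AG and Control, a ratio of 0.890 (0.858 to 0.922). These 3 genes had the smallest log2 ratios of the class, from -0.21 to -0.17. RPL17 rested on 43 fragments in AG and 55 in Control, and its interval (0.560 to 1.30) includes 1. RPL37A, RPL31, RPL30, RPL23 and RPL14 lay between 0.891 and 0.950. RPL27 was the one other gene above 0, at 271 FPKM in AG and 261 in Control, a ratio of 1.04 (1.01 to 1.07). Over the 18 genes the median log2 ratio was -0.11, 16 were below 0, and 15 had a counting interval below 1, where 22.9% of all expressed genes had one. Such intervals narrow with level, and among the 133 genes of any kind with a mean of at least 100 FPKM 48.9% had an interval below 1.

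RPL7A (ENSG00000148303), a large subunit protein of the exit tunnel side, stood alone. The gene lies on chromosome 9 at 133348214 to 133351426 on the plus strand (GRCh38, GENCODE 29). It had 40.2 FPKM in AG and 12.8 in Control, from 1338 and 466 fragments, a ratio of 3.14 (2.82 to 3.49). RPL7AP6, a processed pseudogene named after it, was at 170 FPKM in AG and 194 in Control, above the gene in both libraries. The ratio of RPL7AP6 was 0.875 (0.825 to 0.928), close to those of other ribosomal proteins. The 4 RPL7A pseudogenes listed in both libraries held 60.7% of the fragments of gene and pseudogenes together in AG and 84.6% in Control. The summed fragments gave a ratio of 1.23 (1.17 to 1.29) in place of 3.14, so the gene no longer passed 1.5-fold. Exons of RPL7A overlap 4 snoRNA genes over 12.7% of their length. Which copy each read came from was not tested, and the value of RPL7A is therefore uncertain.

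Small subunit proteins lay closer to 1 than those of the large subunit. RPS6, the substrate of the S6 kinases, had 632 FPKM in AG and 614 in Control, a ratio of 1.03 (1.01 to 1.05). RPS12 had 631 FPKM in AG and 656 in Control, a ratio of 0.962 (0.933 to 0.991). RPS27 had 474 and 479 FPKM in AG and Control, with a counting interval of 0.958 to 1.02. These were the 3 highest of the class, and RPS6 was above Control while RPS12 and RPS27 were below it. RPS14, whose loss is known from the 5q deletion of myelodysplastic disease, had the largest log2 ratio, 0.06, at 149 FPKM in AG and 144 in Control. RPS13 and RPS18, at 206 and 433 FPKM in AG, against 204 and 432 in Control, had intervals that include 1. RPS19, mutated in Diamond-Blackfan anaemia, had 193 FPKM in AG and 199.8 in Control.

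The lowest ratios of the small subunit were those of RPS15A, RPS9 and RPS16. RPS15A had 2.53 FPKM in AG and 3.20 in Control, a ratio of 0.791 (0.669 to 0.933) from 251 and 347 fragments. RPS9 had 98.3 FPKM in AG and 111 in Control, a ratio of 0.885 (0.856 to 0.915). RPS16 had 269 FPKM in AG and 290.5 in Control, a ratio of 0.927 (0.903 to 0.951). All 3 were lower in AG, by log2 ratios of -0.25, -0.17 and -0.11. RPS4X, RPS3A and RPS10 had ratios from 0.935 to 0.972. Over the 14 genes the median log2 ratio was -0.04, 10 were below 0, 7 had an interval below 1 and 2 had one above 1. Of the 133 genes of any kind averaging 100 FPKM or more, 61.7% were below 0 and 48.9% had an interval below 1. Of all expressed genes 16.9% had an interval above 1. The class medians of the large and the small subunit differed by -0.07 on the log2 scale, within the range of the members of either class.

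**Figure D2:**
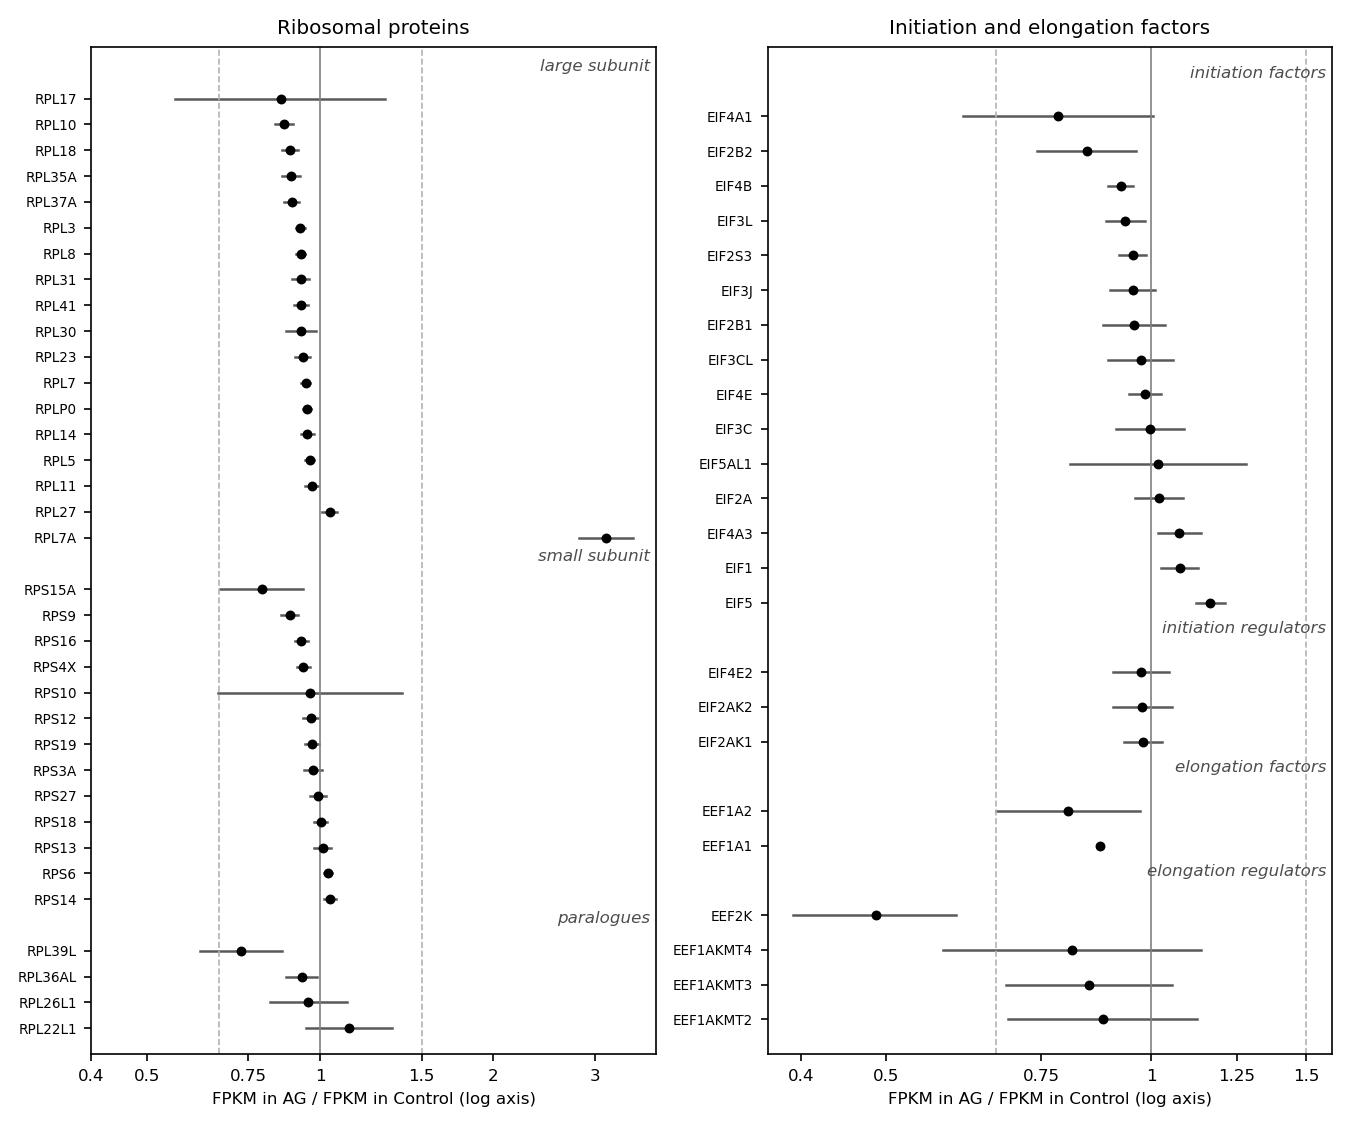
Ratio of AG to Control FPKM (log axis) for the expressed members with recovered fragments that are reported by name, with bars for the 95% counting interval, a solid line at 1 and dashed lines at 1.5-fold either way. Most ribosomal proteins sit a little below 1 with narrow bars, RPL7A stands at 3.14 and EEF2K at 0.486.

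Among the paralogues of ribosomal proteins, RPL39L was the lowest. RPL39L, a copy of RPL39 best known from testis and tumour cells, had 15.96 FPKM in AG and 21.9 in Control, a ratio of 0.728 (0.617 to 0.858) from 245 and 368 fragments. Its log2 ratio of -0.44 did not reach 1.5-fold. RPL22L1, a paralogue of RPL22, had 9.06 FPKM in AG and 8.08 in Control, and its interval (0.945 to 1.33) includes 1. RPL36AL, a copy of RPL36A, had 184 FPKM in AG and 198 in Control, a ratio of 0.928 (0.872 to 0.988). RPL26L1 had 18.1 FPKM in AG and 19.0 in Control, and its interval (0.816 to 1.11) includes 1. Of the 4 genes 3 were below 0, where 56.8% of all expressed genes were, and the median log2 ratio was -0.09.

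Start sites of the ribosomal protein genes were alike in sequence. The RefSeq promoter table (GRCh38.p14) held a start for 25 of the 32 expressed subunit proteins. The tract was scored as a C at an annotated start followed by at least 4 letters that are each C or T. It was read on the strand of the gene only, and a gene counted if any of its starts matched. It was present in 21 of these 25 genes, or 84.0%, and in 4 of 19 factors and regulators. Of the other expressed protein-coding genes 7.24% had it, counted in the same way. Counted by promoter, it was present in 4.08% of all 34961 promoters in the table outside the Y chromosome. Windows of 30 bases from 10 before the start are shown for members the results turn on, with the tract in capitals.
RPL7A (chr9:133348208-133348237, plus strand): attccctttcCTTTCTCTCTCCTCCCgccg
RPL10 (chrX:154398367-154398396, plus strand): ggaggagcgcCTCTTTCCCTTCggtgtggt
RPL18 (chr19:48619159-48619188, minus strand): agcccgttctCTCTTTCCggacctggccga
RPL41 (chr12:56116623-56116652, plus strand): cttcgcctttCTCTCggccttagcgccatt
RPS6 (chr9:19380217-19380246, minus strand): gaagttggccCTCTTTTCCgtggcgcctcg
RPS12 (chr6:132814559-132814588, plus strand): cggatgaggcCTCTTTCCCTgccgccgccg
RPS14 (chr5:150449720-150449749, minus strand): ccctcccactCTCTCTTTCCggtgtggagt
EEF1A1 (chr6:73521013-73521042, minus strand): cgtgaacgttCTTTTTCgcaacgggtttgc
EIF4B (chr12:53006446-53006475, plus strand): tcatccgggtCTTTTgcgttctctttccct
The starts of EEF2K and EIF5, which had the lowest ratio of the expressed members and the highest of the factors, hold no such tract and are given without capitals.
EEF2K (chr16:22206268-22206297, plus strand): gcccgcttctgctcaacctagaccagcccc
EIF5 (chr14:103334227-103334256, plus strand): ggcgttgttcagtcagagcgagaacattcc
The 26 expressed members with such a tract had a median log2 ratio of -0.06, and the 21 members with a start but no tract had -0.07. Subunit proteins had -0.06 with the tract (21 genes) and -0.11 without it (4 genes), but 3 of those 4 genes were of the large subunit. Within the large subunit the medians were -0.11 with the tract (10 genes) and -0.12 without it (3 genes). The small subunit had 11 genes with the tract (median -0.04) and 1 without it. Factors and regulators had -0.09 with it (4 genes) and -0.04 without it (15 genes). Among expressed protein-coding genes that are not members, 257 of 3549 with a start had the tract, with a median of -0.02, against -0.03 for the other 3292. A match describes the letters in the window and not a measured start site.

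Initiation factors showed no common shift of any size. EIF2S3, the gamma subunit of the eIF2 complex that carries the initiator tRNA, had 91.1 FPKM in AG and 95.7 in Control, a ratio of 0.952 (0.918 to 0.987). EIF4B, which stimulates the helicase of the cap complex, had 73.8 FPKM in AG and 80.0 in Control, a ratio of 0.923 (0.894 to 0.954). EIF1, which guards start codon choice, had 58.7 FPKM in AG and 54.5 in Control, a ratio of 1.08 (1.02 to 1.13). These were the 3 most abundant, and EIF1 alone of them was above Control. EIF5, which activates the GTPase of eIF2 at the start codon, had the largest log2 ratio of the class, 0.22. It had 46.2 FPKM in AG and 39.6 in Control, a ratio of 1.17 (1.12 to 1.21) from 5704 and 5344 fragments. EIF4A3, a helicase of the exon junction complex despite its name, had 28.3 FPKM in AG and 26.3 in Control, a ratio of 1.08 (1.02 to 1.14).

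The lowest initiation factors were EIF4A1 and the eIF2B subunit EIF2B2. EIF4A1, the cap complex helicase, had 1.48 FPKM in AG and 1.88 in Control, a ratio of 0.784 (0.611 to 1.003) from 114 and 159 fragments. EIF2B2 had 5.13 FPKM in AG and 6.07 in Control, a ratio of 0.844 (0.741 to 0.962). EIF2B1, another subunit of the same exchange factor, had 20.9 FPKM in AG and 21.8 in Control, and its interval (0.882 to 1.04) includes 1. Of the eIF3 scaffold, EIF3L had 43.3 FPKM in AG and 46.4 in Control, and EIF3J had 45.3 and 47.5. EIF3E had 15.7 FPKM in AG and 16.6 in Control, with no recovered fragments and so no interval. EIF3C and EIF3CL, near-identical neighbours between which reads may be split, had 9.22 and 22.8 FPKM in AG, against 9.26 and 23.4 in Control. The 5 eIF3 genes thus lay between 0.934 and 0.996. EIF4E, the cap-binding protein, had 19.6 FPKM in AG and 19.9 in Control. EIF2A, an alternative initiation factor, had 21.9 and 21.4 FPKM in AG and Control, and EIF5AL1, a copy of the eIF5A gene, had 2.55 and 2.51. Of the 16 genes 11 were below 0, where 56.8% of all expressed genes were, and the median log2 ratio was -0.05. An interval below 1 was found for 4 genes and one above 1 for 3. Of all expressed genes 22.9% had an interval below 1 and 16.9% had one above 1.

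Regulators of initiation had the class median nearest 0. EIF2AK1, the haem-regulated kinase that phosphorylates eIF2, had 37.2 FPKM in AG and 38.0 in Control, a ratio of 0.978 (0.931 to 1.03). EIF2AK2, the kinase PKR of double-stranded RNA, had 7.56 FPKM in AG and 7.74 in Control. EIF4E2, a cap-binding repressor, had 13.95 FPKM in AG and 14.3 in Control. All 3 intervals include 1, and the median log2 ratio was -0.03, as over the other expressed genes. EIF2AK3, the kinase PERK of the endoplasmic reticulum, was under the level filter at 0.729 FPKM in AG and 0.679 in Control. EIF4EBP3, an inhibitor of eIF4E, was also under it and rested on 6 fragments in AG and 8 in Control.

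All 6 expressed elongation factors and regulators were below 0, where 56.8% of all expressed genes were. EEF2K was the only one past 1.5-fold, and the intervals of 3 of the 6 include 1. EEF1A1 (ENSG00000156508), which brings aminoacyl-tRNA to the ribosome, had 749 FPKM in AG and 855 in Control, a ratio of 0.875 (0.868 to 0.882). It was the member with the most fragments, 111914 in AG and 139786 in Control at the length solved from the FPKM steps (10063 bases), and ranked 9 among all listed genes in both libraries. EEF1A2, its paralogue of nerve and muscle, had 2.76 FPKM in AG and 3.43 in Control, a ratio of 0.805 (0.666 to 0.970). EEF1A1P5, a processed pseudogene of EEF1A1, had 646 FPKM in AG and 740 in Control, and its ratio of 0.873 (0.853 to 0.893) had an interval that overlaps that of the gene. EEFSEC, the factor for selenocysteine, had 0.225 FPKM in AG and 0.849 in Control, a ratio of 0.265 (0.106 to 0.585). It rested on 8 fragments in AG and 33 in Control and lay under the level filter.

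EEF2K (ENSG00000103319) had the lowest ratio of the expressed members. The gene lies on chromosome 16 at 22206282 to 22288732 on the plus strand (GRCh38, GENCODE 29). It had 1.08 FPKM in AG and 2.22 in Control, from 129 and 290 fragments, a ratio of 0.486 (0.392 to 0.600) and a log2 ratio of -0.63. A pseudocount of 5 FPKM or a minimum of 5 FPKM ended this call. The other elongation regulators are methyltransferases of eEF1A. EEF1AKMT2, EEF1AKMT3 and EEF1AKMT4 had 1.39, 3.28 and 2.21 FPKM in AG, against 1.58, 3.86 and 2.72 in Control. All 3 were below 0 with intervals that include 1.

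**Figure D3:**
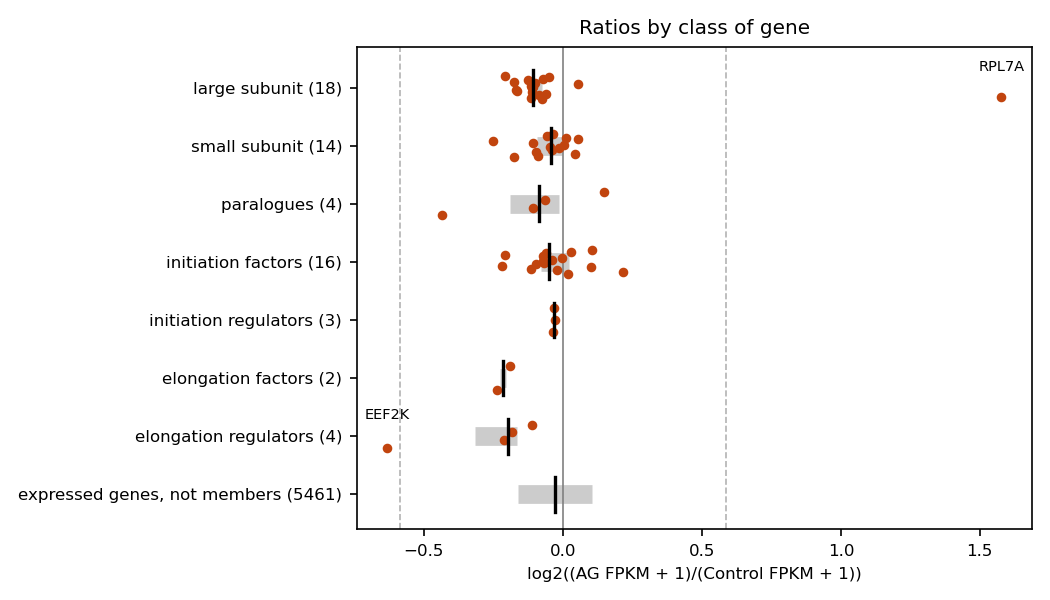
Log2 ratios of AG to Control (after adding 1 FPKM) of the expressed members by class, with numbers of genes in parentheses, black bars for medians and grey bars for the interquartile range, also shown for the 5461 expressed genes that are not members. Dashed lines mark 1.5-fold; RPL7A and EEF2K are the members past them.

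Set side by side, the class medians spanned a narrow range. They were -0.11 for the large subunit, -0.04 for the small subunit, -0.09 for paralogues, -0.05 for initiation factors and -0.03 for initiation regulators. The elongation factors, 2 genes, had -0.21 and the elongation regulators, 4 genes, had -0.20. Subunit proteins of both kinds together had -0.09, which was 0.04 below the initiation factors on the log2 scale. Their recovered fragments made up 2.24% of the AG total and 2.35% of the Control total, and the EEF1A genes made up 0.755% and 0.862%. At its annotated exon length of 5948 bases, where its fragments were not whole, EEF1A1 alone would hold 0.445% in AG and 0.509% in Control. The 24 members with a mean of at least 100 FPKM had a median log2 ratio of -0.08, with 19 below 0, where 61.7% of all genes at that level were, and 17 with an interval below 1. The 109 other genes at that level had a median of -0.04, with 63 below 0 and 48 with an interval below 1. Scaling by the median of ratios raised the members' log2 ratios by 0.02 to 0.04. Of the 61 members 44 were then below 0, or 72.1%, where 49.9% of 5537 expressed genes were, and the large subunit had a median of -0.07. The medians of the small subunit, the initiation factors and the initiation regulators are of the size of that shift, while those of the other classes are larger.

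Fragments were assigned to pseudogenes in several families, and RPL7A was the one member whose call depended on them. GENCODE 29 names at least 5 pseudogenes after each of 24 of the 61 members, up to 61 for RPL7. Of the 19 members with a pseudogene listed in both libraries, 5 had at least 10% of the joint Control fragments in pseudogenes. These were EEF1A1 at 11.6% in AG and 11.7% in Control (18.2% and 18.3% at its annotated length), RPL7 at 13.5% and 14.3%, RPL17 at 25.9% and 12.7%, RPS10 at 62.6% and 66.3%, and RPL7A. The sum for RPL7 leaves out RPL7P9, which was listed in AG only: with its 2692 fragments the AG share would be 21.9%, and the ratio of the summed fragments 1.03 in place of 0.935. Adding the pseudogene fragments listed in both libraries moved the ratio by more than 1.1-fold for 3 of the 19 genes. RPL7A was 1.23 in place of 3.14, RPL17 was 1.006 in place of 0.855, and RPS10 was 0.864 in place of 0.961. The intervals of RPL17 (0.692 to 1.46) and RPS10 (0.696 to 1.07) include 1. Of the RPS10 pseudogene fragments RPS10P7 held 95 of 97 in AG and 124 of 130 in Control. RPS10P7 is annotated at 3018 exon bases, against 531 for RPS10P5, which held the rest. Which part of RPS10P7 its fragments came from was not tested. The other 16 stayed within 1.1-fold of their own ratio. With the fragments of pseudogenes listed in both libraries added, 17 of the 19 ratios were below 1, and those of RPL7A and RPL17 were above it. Of the 19 intervals 13 lay below 1 and 1 lay above it. Of all expressed genes 56.8% were below 0 on the log2 scale and 22.9% had an interval below 1.

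**Figure D4:**
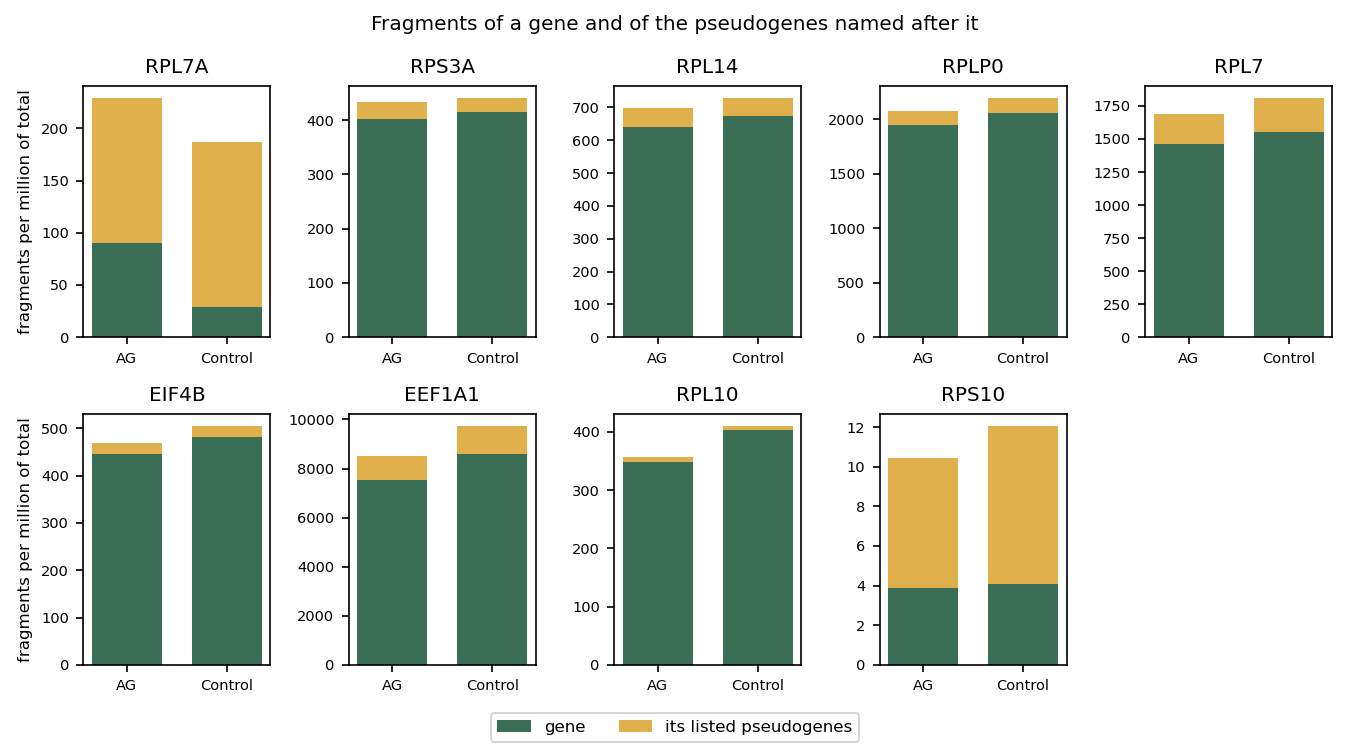
Fragments scaled to the library total for the gene (green) and the pseudogenes named after it that were listed in both libraries (yellow), AG left and Control right, for the 9 expressed members with at least 100 pseudogene fragments in Control. In RPL7A the pseudogenes hold 60.7% of the AG and 84.6% of the Control fragments; in RPL10 they hold 2.12% and 1.83%.

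Levels of ribosomal proteins, most of which form the ribosome in equal numbers, spread over 699-fold in AG and 646-fold in Control. Of the 32 subunit proteins 21 were at 100 FPKM or more in AG and 22 in Control, and 3 were under 5 FPKM in both: RPL17, RPS10 and RPS15A. RPL17 had 1.18 FPKM in AG and 1.38 in Control, and its exons overlap those of the read-through gene RPL17-C18orf32 and 3 snoRNA genes on the same strand over 32.7% of their length. RPS10 had 1.70 FPKM in AG and 1.77 in Control, with 39.4% of its exon length shared with RPS10-NUDT3. EIF4A1, with 48.6% shared with SENP3-EIF4A1 and other genes, was under 5 FPKM as well. Over all 61 members, 7 overlap another gene on the same strand over at least 10% of their exon length, and 5 of these had a mean under 5 FPKM. Of the 54 others, 5 did. RPS15A, with an overlap of 3.26%, was low without it. The part of the overlap in these levels was not tested, and a low value here is not read as low expression.

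Partners of the machinery, from lists of related genes, mostly lay within 1.5-fold. Of 6 listed ribosomal proteins fused to ubiquitin-like proteins and ribosome-associated genes, 4 had values, with a median log2 ratio of -0.15. All 4 were below 0, where 56.8% of all expressed genes were. FAU, the precursor of a small subunit protein, had 34.2 FPKM in AG and 45.3 in Control, a ratio of 0.755 (0.688 to 0.827). TPT1, a TOP mRNA itself, had 62.1 FPKM in AG and 66.2 in Control, the smallest difference of the list. Of the mTORC1 and S6 kinase list 1 of 6 expressed genes was lower and 5 were within 1.5-fold (median -0.07). That gene was PDCD4, an inhibitor of eIF4A, at 14.8 FPKM in AG and 24.3 in Control, a ratio of 0.608 (0.562 to 0.657). RPS6KA1, an RSK kinase, had 2.59 FPKM in AG and 1.61 in Control, a ratio of 1.604 (1.30 to 1.98) that stayed within 1.5-fold after the pseudocount.

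Ribosome assembly genes showed no common direction. All 10 expressed members of the nucleolar list were within 1.5-fold, and the median log2 ratio was 0.02. Of the 10 genes 5 were below 0, where 56.8% of all expressed genes were. FBL, the rRNA methyltransferase fibrillarin, had 20.6 FPKM in AG and 14.2 in Control, a ratio of 1.46 (1.29 to 1.64). RRN3, the RNA polymerase I factor, had 5.01 FPKM in AG and 6.41 in Control, a ratio of 0.781 (0.673 to 0.906). Of the poly(A) and cap partners PABPC1, the poly(A)-binding protein, had 276 FPKM in AG and 269.8 in Control, and GIGYF2 had 9.95 and 10.1 (median 0.01). The 3 termination and recycling genes were within 1.5-fold (median -0.01), from PELO at 2.25 FPKM in AG and 2.61 in Control to GSPT1 at 31.2 and 29.1. Of the eIF2 phosphatase and stress list, DDIT3 had 6.28 FPKM in AG and 5.23 in Control and PPP1R15B had 50.4 and 46.2 (median 0.17). The 4 genes that modify eIF5A and eEF2 were within 1.5-fold (median -0.04), from DHPS at 1.11 FPKM in AG and 1.61 in Control to DOHH at 12.4 and 10.3.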

How the data were processed

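RNA from 1 AG and 1 Control sample of HAL-01 was made into libraries with a stranded mRNA kit, per the labels' protocols. The deposited values are FPKM per Ensembl gene made by the authors. The submitters' processing notes name Trimmomatic, HISAT2, Cufflinks and HTSeq and the build hg38, without versions or roles; the sources used here give no annotation release, strand setting or filter. Genes were named through GENCODE 29, which held 97.1% of the IDs. The members and gene lists were chosen with earlier results of these data known.

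From the FPKM values the library totals were solved as those that turn low values into whole fragments. At these totals 88.1% of 5259 single-transcript genes in AG and 88.4% of 5315 in Control were whole within 0.01. A pair of whole fragments was then recovered for 60 of the 61 expressed members (99.1% of all expressed genes). For 9 members it fitted the annotated exon length and for 51 another length, the one nearest to it where several were possible, so fragments, shares of the total and the exact counting intervals (Clopper-Pearson) rest on that choice. EEF1A1 was the one expressed member whose length differed from the annotated one by over 1.5 times. Under the level filter, EIF2AK3 was solved at 20691 bases against 5434 annotated. Log2 ratios used a pseudocount of 1 FPKM, and a gene counted as expressed if both libraries listed it and its mean reached 1 FPKM. No count model was run, since each group has 1 library. The recovery and ratios were run on simulated data built with the lengths chosen here, which cannot show whether those lengths are right.

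Named in full were members past 1.5-fold, the 3 highest by level and the 3 largest and 3 smallest log2 ratios of each class, members of small complexes, paralogues and members listed in 1 library at 5 FPKM or more; of related lists, the highest and lowest ratio. A few genes enter the counts and medians but are not reported here by name. Others were named after their values were seen. Alternatives were other pseudocounts, filters, thresholds and scalings, and leaving out members with 5 or more pseudogenes; leaving out overlapped members and adding pseudogene fragments were chosen after seeing the data. Scripts ran in Python 3.11.15 (pandas 2.3.3, scipy 1.17.1, numpy 2.4.6), and matplotlib 3.10.9 drew the figures.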

Additional observations from a re-analysis of the deposited data

Results flagged for a closer look

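Both members listed in AG only stand outside the comparisons above. RPL28, a large subunit protein, was listed at 90.7 FPKM in AG and had no value in Control. EIF1AD, a protein with a domain like that of eIF1A, was listed at 13.6 FPKM in AG and had no value in Control. Of the pseudogenes, RPL7P9 was listed at 243 FPKM in AG and RPL32P3 at 6.89 FPKM in AG, again with no value in Control. No fold is given for these genes, since a missing value is not a measured 0. AG listed 13351 genes and Control 13342, with 10548 in both, so that listing in 1 library was common among all genes. These counts are for genes of any level and not for genes as high as RPL28 or RPL7P9.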

How the results depend on the processing

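The number of members at least 1.5-fold lower, 1 as reported, was 0 with a pseudocount of 5 FPKM, 0 with a mean of at least 5 FPKM, 0 at a 2-fold threshold and 2 with no filter on low values, where EEFSEC joined EEF2K. The number at least 1.5-fold higher, also 1, was 0 without members with 5 or more pseudogenes, 0 without overlapped members and 0 with pseudogene fragments added; each of these alternatives takes out or re-sums RPL7A. Without members with 5 or more pseudogenes 29 of 37 members were below 0. The median of the initiation regulators turned to 0.0014 when scaled by the median of ratios, which moves log2 ratios up by as much as 0.04, more than the class median of -0.03. The median over all members ranged from -0.08 to -0.04 over the alternatives. Of 98 medians and differences of medians under the alternatives that was the only one to change sign. Of 508 values of single members 7 changed sign, all within 1.5-fold: EIF3C under both scalings, RPS27, EIF4E, EIF2AK1 and EIF2AK2 under the median of ratios, and RPL17 with pseudogene fragments added. Adding RPL7P9 to the RPL7 sum and the annotated length of EEF1A1 were also tried after seeing the data. No paired analysis was possible because each group has 1 library and the labels carry no replicate numbers, and no library could be left out for the same reason. Depth limits the low members: 7 of the expressed members rest on fewer than 200 fragments in each library (RPL17, RPS10, EIF4A1, EIF5AL1 and 3 of the 4 elongation regulators, EEF1AKMT2, EEF1AKMT3 and EEF1AKMT4), as do EEFSEC and EIF4EBP3 below the level filter.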

Other observations

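Pseudogenes named after members without a value also carried FPKM. Of 49 expressed pseudogenes of these gene families 29 had such a parent. The 49 had a median log2 ratio of 0.01, and 23 were below 0, where 56.8% of all expressed genes were. Some of them rest on few fragments, such as RPL39P36 with 1 in AG and 8 in Control. RPS7P1 was the highest of those 29, at 159 FPKM in AG and 175 in Control, a ratio of 0.904 (95% counting interval 0.841 to 0.972). RPL15P3 had 111 FPKM in AG and 113 in Control, and RPL13P12 had 98.0 and 96.5; both intervals include 1. The parent genes RPS7, RPL15 and RPL13 were not analysed here.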
